A study of Mus musculus with 8 samples.

Results

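The genes described here are the Wnt ligands, their receptors, secreted antagonists and R-spondins, and the intracellular and nuclear parts of the pathway. They were chosen by platform gene symbol: the Wnt, Fzd, Sfrp and Dkk families, Lrp5, Lrp6, Lgr5, Rspo1 to Rspo3, Axin1, Axin2, Ctnnb1, Lef1, Tcf7, Tcf7l1 and Tcf7l2. This gave 65 of the 25697 probes on the array, for 46 genes. Of the 51 names the rule allows, Fzd5, Fzd9, Sfrp3, Axin1 and Tcf7 had no probe under that name in the table used; Sfrp3 stood there as Frzb and is given with the further genes of the pathway, and the other 4 were not analysed here. RNA was taken from dorsal root ganglia (DRG), the clusters of sensory neurons and glia beside the spinal cord, of E12.5 mouse embryos. The 4 samples labelled Erk1/2CKO(Wnt1), here the Erk1/2 mutant, were compared with 4 wild-type samples on Illumina bead arrays, one sample per array. In the mutant the kinases Erk1/2 are removed by a Cre under Wnt1 control, which is active in the neural crest that gives rise to DRG neurons and glia. The labels do not say whether the wild-type embryos carried the Cre, whether a sample was 1 embryo or a pool, or which of the 3 litters it came from, so p-values measure the spread between these samples. The genes named in the genotype had no probe under their names, and the deletion itself was not checked here.

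Wnt proteins are secreted ligands that bind Frizzled receptors and, for the beta-catenin branch, the co-receptors Lrp5 and Lrp6. Binding stops a complex built on Axin from marking beta-catenin, the product of Ctnnb1, for destruction, and beta-catenin then acts with the DNA-binding factors Lef1 and Tcf7, Tcf7l1 and Tcf7l2 on target genes. In the embryo Wnt1 and Wnt3a are made in the dorsal neural tube, and beta-catenin signalling in neural crest cells favours the sensory neuron fate.

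Before correction the mutant arrays had a median bead intensity of 137.7 to 147.1, against 144.0 to 159.4 for the wild-type arrays. Levels below are log2 intensities after background correction and quantile normalization, and they are compared between arrays for 1 probe at a time, never between probes. A level of 6.71, the median over all probes, served as the filter: 27 of the 65 probes lay above it on average, and they represent 24 of the 46 genes. These 24 genes were tested at their brightest probe among 8935 named genes, and the other 22 are described by their values. Wild-type replicates 3 and 4 stood apart from wild-type replicates 1 and 2 on these arrays, so values are also given without each pair. The pairs were told apart on these same data, so a fit on 1 pair is no independent test. The sensory neuron factors Isl1 and Pou4f1, each at its brightest probe, lay far above the filter level on all 8 arrays, at 14.15 to 14.62 and 11.93 to 12.41. Of 10 sensory neuron markers listed, 8 had a probe and all 8 passed the filter, Tubb3 narrowly at 6.85 to 7.28. Tlx3 alone passed a limma adjusted p under 0.05 and was higher in the mutant (difference 0.75, limma adjusted p = 0.0108). The summed level of the 8 was -0.14 to 0.31 in the mutant, against -0.18 to 0.07 in the wild-type. Among 9 glial markers listed, 5 had a probe and 3 of these lay above the filter (Fabp7, Dhh and Gfra3), while Foxd3 and Cdh19 did not. In ganglia measured in bulk, fewer cells of a type and less RNA per cell cannot be told apart.

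No gene of the 24 tested differed between mutant and wild-type ganglia at a limma adjusted p under 0.05: 0 were higher and 0 lower. Over all named genes 2.51% were called (224 of 8935), 1.40% higher and 1.11% lower. Of the 24, 2 (Fzd1 and Rspo2) passed the filter through the mutant arrays alone: their means were 6.87 and 6.91 in the mutant, against 6.68 and 6.52 in the wild-type, which lie under the filter level. Counts of smaller differences are therefore given over all 46 genes with no filter. At an unadjusted limma p under 0.05 there were 5 of 46 (10.9%), Wnt4, Wnt6, Fzd1, Rspo2 and Ctnnb1, against 13.0% of 16593 named genes. Mutant and wild-type arrays did not overlap for 5 of 46 (10.9%), against 8.17% of all named genes. Of these 5, 4 were higher (Wnt4, Fzd1, Fzd8 and Rspo2) and 1 lower (Ctnnb1), beside 4.26% and 3.91% of all named genes. The median log2 difference of the 24 was -0.0031, mutant minus wild-type, against 0.0018 over all named genes, with 11 differences positive and 13 negative. All 24 differences had a 95% interval inside a 2-fold change in either direction, and for 21 it lay inside a 1.5-fold change. The 3 wider intervals were those of Fzd10, Sfrp5 and Rspo2. The size of the differences of dim probes depends on the background step, so these bounds hold for the values on this scale. For Wnt4 the difference was 0.33 as reported, 0.25 without background correction and 0.43 with a normexp offset of 16. For Fzd1 these values were 0.19, 0.14 and 0.28.

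**Figure D1:**
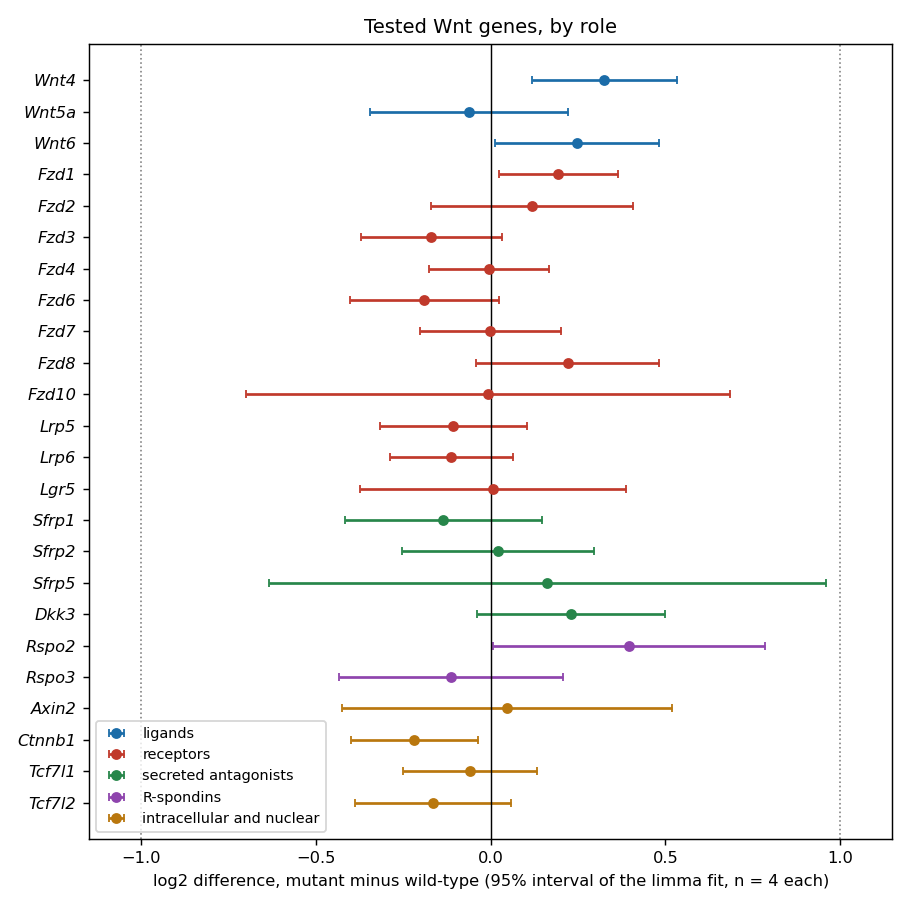
Log2 difference of each of the 24 tested Wnt genes, mutant minus wild-type, coloured by role, with the 95% interval of the limma fit (n = 4 arrays per group); dotted lines mark a 2-fold change. All intervals stay inside the dotted lines, and those of Fzd10 and Sfrp5 are the widest.

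Most ligands gave signals in the range of the dimmest probes. Of 19 Wnt genes with 28 probes, 3 passed the filter: Wnt4, Wnt5a and Wnt6. Wnt4, a ligand needed for kidney tubule and ovary development, had levels of 7.27, 7.42, 7.27 and 7.03 on mutant arrays 1 to 4, against 6.90, 6.89, 6.89 and 7.01 on wild-type arrays 1 to 4. Every mutant array lay above every wild-type array, with mutant replicate 4 almost level with wild-type replicate 4. The difference was 0.33 ± 0.09 (SE of the fit, n = 4 per group), 1.25-fold, and it missed the threshold (limma adjusted p = 0.103). Without mutant replicate 4 it was 0.40 and passed (limma adjusted p = 0.0481), beside 2.24% of all named genes called in that fit. The dimmer probe of Wnt4, under the filter, differed by 0.15 and its groups overlapped.

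Wnt6, a ligand of ectoderm and somites, had 7.77, 7.84, 7.55 and 7.57 in the mutant, against 7.45, 7.51, 7.57 and 7.22 in the wild-type. The groups met at mutant replicates 3 and 4 and wild-type replicate 3. The difference was 0.25 ± 0.11 (limma adjusted p = 0.248, n = 4 per group). Wnt5a, a ligand best known for signalling that does not pass through beta-catenin, had 8.31, 8.10, 7.69 and 7.98 in the mutant and 8.03, 7.94, 8.20 and 8.16 in the wild-type. The mutant arrays spread more widely than the wild-type arrays and on both sides of them, with a difference of -0.06 ± 0.13 (limma adjusted p = 0.835).

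Wnt1, whose control elements drive the Cre in the mutant, was among the dim ligands. Its probe read 6.24, 6.28, 6.39 and 6.13 on the mutant arrays, against 6.08, 6.21, 6.25 and 6.27 on the wild-type arrays. All 8 values lay under the filter level and the groups overlapped, with a difference of 0.06 (limma adjusted p = 0.858 in the fit without a filter). At this signal neither a level nor a loss of Wnt1 RNA was detectable. The other 15 untested ligands were Wnt2, Wnt2b, Wnt3, Wnt3a, Wnt5b, Wnt7a, Wnt7b, Wnt8a, Wnt8b, Wnt9a, Wnt9b, Wnt10a, Wnt10b, Wnt11 and Wnt16, and at their brightest probes the groups overlapped for each of them. In the fit on all genes without a filter, which called 1.32% of 16593 named genes, none of the 22 untested members was called (smallest limma adjusted p = 0.438, Wnt9b). Nor had any an unadjusted limma p under 0.05, which 13.0% of all named genes had. Both shares include genes above the filter, of which 18.1% had such a p in the filtered fit. They are therefore not the shares of dim genes alone.

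A few of these dim ligands stood out on single arrays. Wnt5b was highest on mutant replicate 2, at 7.08, against 6.35 to 6.58 on the other mutant arrays and 6.33 to 6.63 in the wild-type. Wnt7b, made by spinal cord and sensory neurons among other cells, read 5.92, 6.26, 5.94 and 6.22 in the mutant, against 6.04, 6.11, 6.17 and 7.67 in the wild-type. Wild-type replicate 4 stood alone. Its raw bead intensity there was 263.4, against 109.6 to 116.5 on the other wild-type arrays. The second probe of Wnt7b read 6.43 on that array and 5.92 to 6.19 on the other 3 wild-type arrays. Wnt3a and Wnt7a had their highest values on the same array, at 6.92 and 6.67. On the mutant arrays they read 5.98 to 6.40 and 5.95 to 6.22, and on the other wild-type arrays 5.89 to 6.08 and 5.97 to 6.26.

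Markers of the spinal cord were read beside these ligands, since Wnt3a, Wnt7a and Wnt7b are made there. Of 16 listed, all had a probe and 2 passed the filter (Nkx6-1 and Lhx3); their summed level ran from 0.04 to 0.17 on the mutant arrays, against -0.32 to 0.15 on the wild-type arrays. Msx1 and Olig3, factors of the dorsal neural tube, read 6.40 to 6.76 and 6.45 to 6.76 on the mutant arrays. They read 7.20 and 7.05 on wild-type replicate 4 and 6.42 to 6.55 and 6.52 to 6.64 on the other wild-type arrays. The 1 probe of Lmx1a, a roof plate factor, that varied most read 6.17 to 6.47 on the mutant arrays, against 6.31, 5.98, 7.05 and 6.81 on the wild-type arrays. Shh read 6.81 on mutant replicate 4 at 1 probe, against 6.19 to 6.39 on the other mutant arrays and 5.84 to 6.29 in the wild-type. At its other probe it read 6.75 on mutant replicate 4 and 6.81 on wild-type replicate 4. The remaining arrays read 6.29 to 6.53 at that probe. Pax2, Pax6, Pax7, Pax8, Olig2, Lbx1, Gdf7, Mnx1, Nkx2-2, Foxa2 and the other Lmx1a probes stayed under the filter level on all 8 arrays. The part of such markers in the ligand values was not tested.

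The receptors were the best represented role, with all 11 genes tested and 0 called. Fzd1 read 6.98, 6.89, 6.74 and 6.86 in the mutant, against 6.66, 6.64, 6.67 and 6.74 in the wild-type. The mutant arrays all lay above the wild-type arrays, though mutant replicate 3 and wild-type replicate 4 were almost level. The difference was 0.19 ± 0.08 (limma adjusted p = 0.219, n = 4 per group). Fzd8 also had arrays that did not overlap, at 7.07 to 7.19 in the mutant and 6.53 to 7.04 in the wild-type, where wild-type replicate 3 was the low one; the difference was 0.22 ± 0.12 (limma adjusted p = 0.351).

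Fzd7, a Frizzled of progenitor cells, read 9.31, 9.38, 9.42 and 9.22 in the mutant and 9.52, 9.21, 9.26 and 9.33 in the wild-type, with a difference of -0.0011 ± 0.09. These groups lay on top of each other. Fzd3, needed for axon guidance and planar polarity, and Fzd6, its close relative in that polarity branch, differed by -0.17 ± 0.09 and -0.19 ± 0.10 (limma adjusted p = 0.349 and 0.323). Fzd2 differed by 0.12 ± 0.13 and Fzd4, a receptor of the vasculature, by -0.0050 ± 0.08. The co-receptors Lrp5 and Lrp6 differed by -0.11 ± 0.09 and -0.11 ± 0.08. Lgr5, an R-spondin receptor, differed by 0.0066 ± 0.17, with mutant replicate 4 at 7.36 and the other 3 mutant arrays at 6.55 to 6.71, against 6.6 to 6.95 in the wild-type.

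The Frizzled gene Fzd10 varied more than any other tested receptor, and between the wild-type pairs rather than between genotypes. Its brightest probe read 8.58, 9.02, 8.53 and 8.59 in the mutant, against 8.11, 8.0, 9.15 and 9.50 in the wild-type. All 4 mutant arrays lay between wild-type replicates 1 and 2, which were lower, and wild-type replicates 3 and 4, which were higher. The mean difference was -0.0078 ± 0.31. The second probe showed the same order, at 7.0 to 7.18 in the mutant, against 6.75, 6.61, 7.37 and 7.69 in the wild-type. A dimmer probe, under the filter, read 6.25 to 6.51 in the mutant, against 6.30, 6.19, 6.61 and 7.09 in the wild-type. Set against replicates 1 and 2 alone, the mutant mean of the brightest probe was higher by 0.63 (limma adjusted p = 0.0636), and against replicates 3 and 4 alone it was lower by 0.64 and called (difference -0.64, limma adjusted p = 0.0337). These fits called 2.37% of all named genes with only wild-type replicates 1 and 2 kept, and 13.6% with only the other pair kept. With the mutant arrays between the pairs, the direction of each difference follows from the pair kept, so the call is no evidence of a genotype difference.

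Axin2, a scaffold of the destruction complex and a widely used readout of beta-catenin activity because it is itself a target gene, followed the same order. It read 8.67, 8.92, 8.48 and 8.44 in the mutant, against 8.17, 8.19, 9.09 and 8.88 in the wild-type. The mutant arrays again filled the gap between the wild-type pairs, apart from mutant replicate 2, which passed wild-type replicate 4. The difference was 0.05 ± 0.21 (95% interval -0.43 to 0.52, limma adjusted p = 0.9335). With wild-type replicates 3 and 4 left out it was 0.45, with replicates 1 and 2 left out -0.35, and there was no call either way (limma adjusted p = 0.138 and 0.145). Lef1, a DNA-binding partner of beta-catenin, had a mean just under the filter level. Its brighter probe read 6.78, 6.67, 6.32 and 6.25 in the mutant, against 6.51, 6.47, 6.90 and 7.02 in the wild-type, the last 2 being the highest of the 8; the other probe stayed between 5.84 and 6.16.

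**Figure D2:**
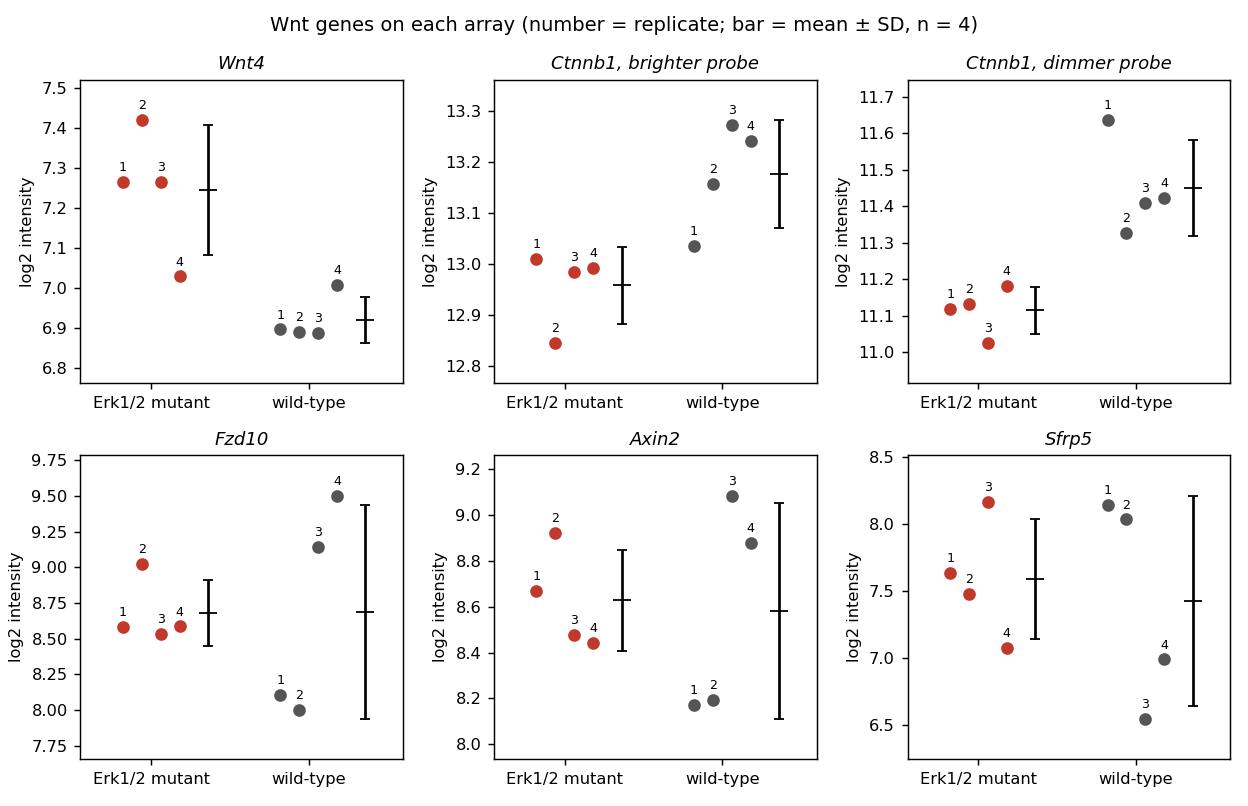
Log2 intensity of 6 probes on each array (points, numbered by replicate) with the mean and SD of each group (bars, n = 4), mutant on the left and wild-type on the right. Wnt4 and both Ctnnb1 probes separate the groups, while for Fzd10 and Axin2 wild-type replicates 3 and 4 lie high and replicates 1 and 2 low, and for Sfrp5 the reverse.

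The promoters of Axin2 and Fzd10, which varied together over the arrays, are shown with that of Fzd1, the only one of the 12 tested members with a promoter in the table used that holds the TCF/LEF core. They are RefSeq sequences of build GRCm38.p6, 250 bases before the start site to 50 after it, written 5′ to 3′ along the gene, at chr11:108920099-108920398 (plus strand, Axin2), chr5:128600856-128601155 (plus strand, Fzd10) and chr5:4758167-4758466 (minus strand, Fzd1). Capitals mark the TCF/LEF core CTTTGA on either strand.
Axin2: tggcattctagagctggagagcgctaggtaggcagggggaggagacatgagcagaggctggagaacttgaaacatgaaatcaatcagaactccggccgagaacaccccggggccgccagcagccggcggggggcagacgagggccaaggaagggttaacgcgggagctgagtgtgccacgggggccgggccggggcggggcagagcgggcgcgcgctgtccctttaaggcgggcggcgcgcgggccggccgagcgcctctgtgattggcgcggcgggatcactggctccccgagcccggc
Fzd10: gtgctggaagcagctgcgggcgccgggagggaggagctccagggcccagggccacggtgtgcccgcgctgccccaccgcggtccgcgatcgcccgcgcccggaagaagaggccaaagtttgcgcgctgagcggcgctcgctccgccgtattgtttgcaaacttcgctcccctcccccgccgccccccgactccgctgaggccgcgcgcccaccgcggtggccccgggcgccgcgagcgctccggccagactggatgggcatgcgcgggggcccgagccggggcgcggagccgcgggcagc
Fzd1: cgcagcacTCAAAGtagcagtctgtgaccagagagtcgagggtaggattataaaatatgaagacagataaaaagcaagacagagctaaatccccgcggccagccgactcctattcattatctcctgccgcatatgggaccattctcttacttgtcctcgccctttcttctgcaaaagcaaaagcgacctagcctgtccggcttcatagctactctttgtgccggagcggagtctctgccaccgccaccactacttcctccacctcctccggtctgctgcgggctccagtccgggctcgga
The core was found once in the Fzd1 window, from base 9, as TCAAAG, its reverse complement, and not in the windows of Axin2 and Fzd10. It was present in 5 of 37 promoters of the members (13.5%, 29 genes matched by symbol) and in 16% of all 32851 promoters of the same length. The ETS site CCGGAAGT, searched on both strands because ETS factors such as Etv4 act downstream of ERK, was present in 0 of the 37 and in 3.89% of all promoters. With no ETS site in any member window, the places of the motifs could not be compared. A match or its absence describes these letters only.

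Of 8 antagonist genes, 4 were tested and 0 called. Sfrp5, a secreted Frizzled-related protein that binds Wnt ligands, had the widest spread of the members tested. It read 7.64, 7.48, 8.16 and 7.08 in the mutant, against 8.14, 8.04, 6.54 and 6.99 in the wild-type. Here wild-type replicates 3 and 4 were the lowest of the 8 arrays and replicates 1 and 2 among the highest, the reverse of Fzd10. The difference was 0.16 ± 0.36 (limma adjusted p = 0.854). It was -0.50 with wild-type replicates 3 and 4 left out, and 0.82 with the other wild-type pair left out (limma adjusted p = 0.323 and 0.0737).

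Sfrp1, a further secreted Frizzled-related protein, read 8.92, 8.88, 8.50 and 8.55 in the mutant and 8.60, 8.84, 9.01 and 8.93 in the wild-type, a difference of -0.14 ± 0.13 with overlapping groups. Dkk3, a divergent member of the Dickkopf family that is not a typical Wnt antagonist, read 8.37, 8.83, 8.69 and 8.50 in the mutant and 8.34, 8.61, 8.27 and 8.24 in the wild-type. Its difference was 0.23 ± 0.12 (limma adjusted p = 0.345), 0.24 at its second probe and -0.0048 at another, dim one. Sfrp2 differed by 0.02 ± 0.12. The Dickkopf genes Dkk1, Dkk2 and Dkk4, which block Lrp5 and Lrp6 or modulate them, and Sfrp4 stayed between 5.74 and 6.68 on all 8 arrays.

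The R-spondins, secreted proteins that strengthen Wnt signals, gave no call. Rspo2 passed the filter narrowly and through the mutant arrays alone, with a mean over the 8 arrays of 6.72 against the filter level of 6.71, and was not tested with a normexp offset of 16. It read 6.76, 6.72, 6.67 and 7.52 in the mutant, against 6.55, 6.42, 6.45 and 6.66 in the wild-type. All wild-type arrays lay under the filter level and all mutant arrays above them. The difference was 0.40 ± 0.18 (limma adjusted p = 0.270, n = 4 per group), and mutant replicate 4 supplied most of it: without that array it was 0.19. Lgr5, its receptor, was highest on the same array. Skeletal muscle markers, of which 6 of 9 passed the filter, had a summed level of 0.68 on mutant replicate 4. They stood at -0.53, -0.68 and 0.44 on mutant replicates 1 to 3 and -0.25 to 0.34 in the wild-type. Sensory neuron markers stood at 0.31 on mutant replicate 4, -0.14 to 0.06 on the other mutant arrays and -0.18 to 0.07 in the wild-type. Somite and cartilage markers stood at 0.19, -0.27 to -0.19 and -0.06 to 0.27 in the same order. The part of these cells in the Rspo2 and Lgr5 values was not tested. Rspo3 read 7.08, 6.86, 6.96 and 7.12 in the mutant, against 6.87, 6.87, 7.23 and 7.50 in the wild-type, with a difference of -0.11 ± 0.14. Rspo1 stayed under the filter level, at 6.25 to 6.58.

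Among the intracellular and nuclear members, Ctnnb1 had its arrays fully apart at both of its probes. The brighter probe read 13.01, 12.85, 12.98 and 12.99 in the mutant, against 13.04, 13.16, 13.27 and 13.24 in the wild-type. The groups came closest at mutant replicate 1 and wild-type replicate 1. The difference was -0.22 ± 0.08, a ratio of 0.859, and missed the threshold (limma adjusted p = 0.193, n = 4 per group). The dimmer probe read 11.12, 11.13, 11.02 and 11.18 in the mutant, against 11.64, 11.33, 11.41 and 11.42 in the wild-type. Its difference was -0.33 ± 0.09 (limma adjusted p = 0.0836 when every probe above the filter was tested, a fit that called 2.18% of 12848 probes). The call depends on scaling: with arrays scaled to their medians only, the brighter probe differed by -0.38 and passed (limma adjusted p = 0.0462, with 2.66% of all named genes called), while that scaling also set the median difference of all genes at -0.06.

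Tcf7l1, which mostly represses beta-catenin targets in the absence of a signal, read 10.23, 10.25, 10.31 and 10.01 in the mutant and 10.22, 10.31, 10.33 and 10.18 in the wild-type. The groups overlapped, with a difference of -0.06 ± 0.09. Tcf7l2, a related factor, read 8.04, 8.12, 7.77 and 7.75 in the mutant and 8.04, 8.10, 8.03 and 8.17 in the wild-type. Mutant replicates 3 and 4 were the low ones, and the difference was -0.17 ± 0.10 (limma adjusted p = 0.419). A second Tcf7l2 probe, under the filter, lay at 6.32 to 6.58 in the mutant and 6.59 to 6.82 in the wild-type, without overlap, and another dim probe differed by 0.04.

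**Figure D3:**
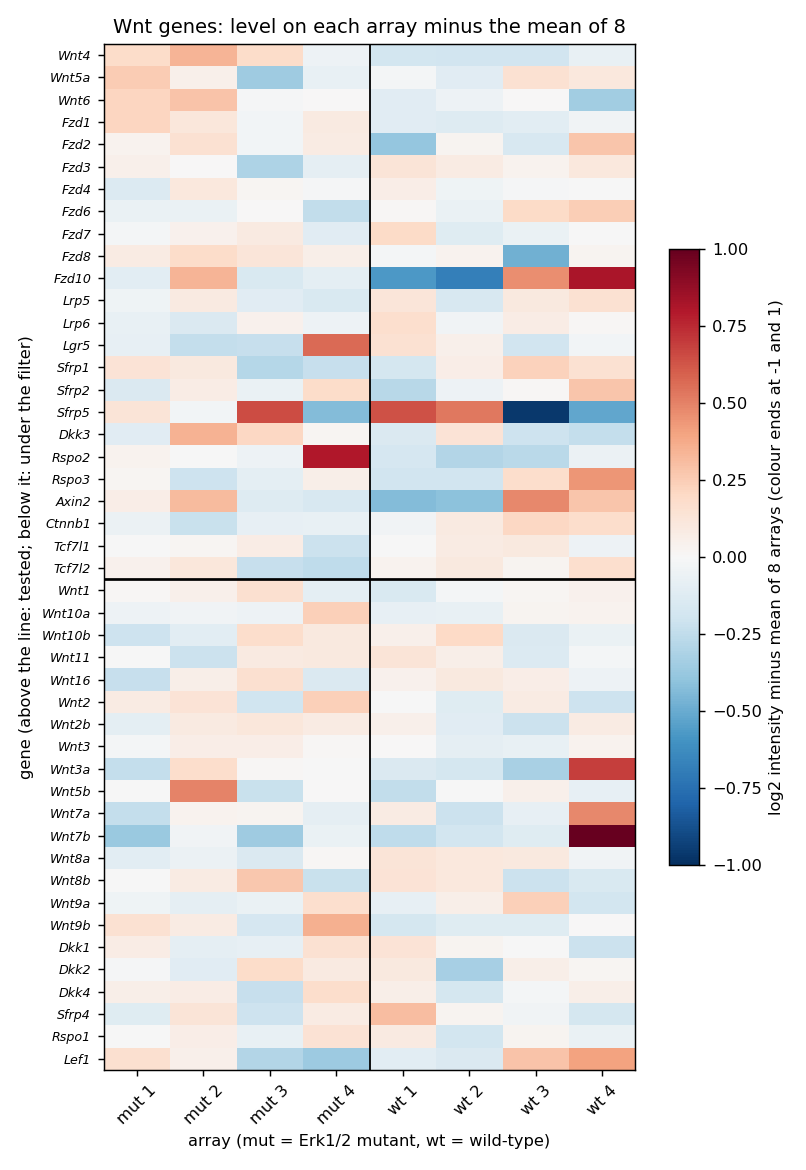
Level of the brightest probe of each of the 46 Wnt genes on each array, as log2 intensity minus the mean of the 8 arrays; mutant arrays are the left 4 columns, wild-type the right 4, and genes under the line did not pass the filter. Fzd10 and Axin2 are high and Sfrp5 low on wild-type replicates 3 and 4, Wnt7b is high on wild-type replicate 4, and Rspo2 and Lgr5 on mutant replicate 4.

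The wild-type pairs differed by over 0.5 on the log2 scale for 3 of the 24 tested members, Fzd10, Axin2 and Sfrp5 (12.5%), against 10.7% of all named genes tested. Fzd10 and Axin2 moved over the wild-type arrays with markers of dividing cells, of which 8 of 13 listed passed the filter. Their summed level was -0.45 to -0.25 on the mutant arrays, against -0.06, -0.04, 0.88 and 0.73 on the wild-type arrays. The kinase gene Plk1 carried the gap between the mutant and wild-type replicates 1 and 2: it read 6.68, 6.62, 9.52 and 6.59 in the mutant, against 9.79, 9.90, 10.95 and 10.73 in the wild-type. Over the other 7 markers the level was -0.20, -0.10, -0.38 and -0.18 in the mutant, against -0.20, -0.20, 0.70 and 0.56 in the wild-type, so that the mutant arrays lay level with wild-type replicates 1 and 2; this setting was chosen after seeing the data. Erythroid markers, 8 of 11 above the filter, stood at -0.24 to -0.06 in the mutant, against -0.08, -0.34, 0.73 and 0.36 in the wild-type. Markers of mesenchyme and meninges, 11 of 12 above the filter, did not follow the pairs, at -0.29 to 0.21 in the mutant, against 0.01, -0.05, 0.14 and -0.12 in the wild-type. Spinal cord markers stood at 0.04 to 0.17 in the mutant, against -0.27, -0.32, 0.15 and 0.03 in the wild-type. The mutant arrays lay above wild-type replicates 1 and 2, as they did for Fzd10 and Axin2. Nkx6-1 carried this order, at 7.84 to 8.19 in the mutant, against 7.31, 7.16, 8.27 and 7.98 in the wild-type. Lhx3, the only other one above the filter, was lowest on wild-type replicates 3 and 4, at 6.83 and 6.87. Lists that were lower on wild-type replicates 3 and 4, as Sfrp5 was, included glia and skeletal muscle. Glial markers stood at 0.49, 0.41, -0.26 and -0.09 on wild-type replicates 1 to 4, against -0.32 to 0.11 in the mutant. Skeletal muscle markers stood at 0.34, 0.20, -0.19 and -0.25 on wild-type replicates 1 to 4, against -0.68 to 0.68 in the mutant. The part of any of these cells in the Fzd10, Axin2 and Sfrp5 values was not tested.

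Outside the families above, 91 further genes of Wnt signalling were listed, 85 had a probe and 59 were tested. Of these, 2 were higher and 2 lower in the mutant and 55 did not pass, a share of 6.78% called against 2.51% of all named genes. The list was chosen with earlier results of these data known, so this share is no test of the pathway. The count of 4 fell to 0 with the replicate block and to 1 to 3 with single arrays left out. The median difference of the 59 was 0.05. Frzb, the secreted Frizzled-related protein also named Sfrp3, read 7.62, 7.05, 6.45 and 7.65 in the mutant, against 7.27, 7.21, 8.20 and 8.05 in the wild-type. Its groups overlapped, with a difference of -0.49 ± 0.30 (limma adjusted p = 0.428, n = 4 per group). Apcdd1, an inhibitor at the cell surface that is also a target gene of the pathway, fell to 7.43, 7.88, 7.64 and 7.57 in the mutant, against 8.57, 8.16, 8.44 and 8.27 in the wild-type. The groups were well apart, with a difference of -0.73 ± 0.12, a ratio of 0.603 (limma adjusted p = 0.0151, n = 4 per group). It kept the call without either wild-type pair, and lost it without mutant replicate 1 (-0.66, limma adjusted p = 0.0568).

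Id2, an inhibitor of basic helix-loop-helix factors listed among beta-catenin targets and also known as a target of BMP signals, fell to 8.81, 8.72, 8.55 and 8.71 in the mutant, against 9.14, 9.35, 9.13 and 9.35 in the wild-type. The difference was -0.55 ± 0.09 (limma adjusted p = 0.0151, n = 4 per group). Its second probe, also above the filter, differed by -0.09 with overlapping groups, and the mean of both probes was not called (-0.32, limma adjusted p = 0.0692). The call of the brighter probe was also lost without mutant replicate 2 or wild-type replicate 4 (limma adjusted p = 0.0519 and 0.0533).

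The genes that rose encode membrane proteins. Ror2, a receptor tyrosine kinase for Wnt5a, rose to 8.83, 8.90, 9.10 and 8.79 in the mutant, against 8.52, 8.50, 8.46 and 8.48 in the wild-type. The wild-type arrays were tightly grouped and all mutant arrays lay above them, with a difference of 0.41 ± 0.08 (limma adjusted p = 0.0351, n = 4 per group). Celsr3, a large cadherin of the planar polarity branch needed for axon tracts, rose to 11.12, 11.23, 11.30 and 11.16 in the mutant, against 10.91, 10.86, 10.45 and 10.57 in the wild-type. Its difference was 0.51 ± 0.11 (limma adjusted p = 0.0480), and a second, dim probe differed by -0.04. Leaving out wild-type replicates 3 and 4 ended both calls (0.39 and 0.32, limma adjusted p = 0.104 and 0.118), as did leaving out any single array for Ror2 except mutant replicate 4 and for Celsr3 except wild-type replicates 1 or 2 (limma adjusted p = 0.0578 to 0.143). Median scaling ended both calls too (limma adjusted p = 0.0585 and 0.122).

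**Figure D4:**
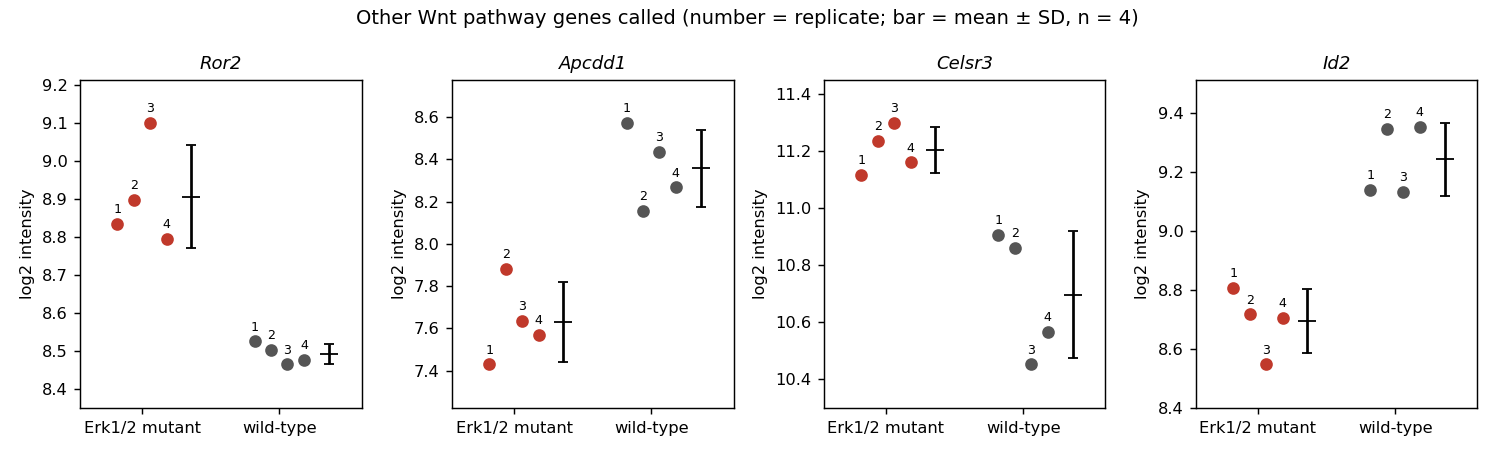
Log2 intensity of the 4 further Wnt pathway genes called, on each array (points, numbered by replicate), with the mean and SD of each group (bars, n = 4), mutant left and wild-type right. Ror2 and Celsr3 are higher and Apcdd1 and Id2 lower on every mutant array than on any wild-type array.

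Levels of 3 marker lists were read beside these 4 genes. The summed level of dividing-cell markers, given above, kept the groups apart with Plk1 and not without it. Of the 8 markers tested, Plk1 was called lower (limma adjusted p = 0.0354), and Cdk1 was the other one whose groups did not overlap, at 9.87 to 10.08 in the mutant, against 10.16 to 11.10 in the wild-type (limma adjusted p = 0.0875). Glial markers, 3 of 9 above the filter, had a summed level of -0.32 to 0.11 in the mutant, against -0.26 to 0.49 in the wild-type, and the 3 did not move together. Dhh, a ligand made by Schwann cell precursors, read 6.93, 7.07, 7.61 and 6.92 in the mutant, against 8.31, 8.29, 7.70 and 7.68 in the wild-type, below it on every array (difference -0.86, limma adjusted p = 0.0525). Fabp7, a fatty acid binding protein of glial precursors, differed by -0.52 and Gfra3, a receptor for the growth factor artemin that sensory neurons also make, by 0.57, both with overlapping groups (limma adjusted p = 0.188 and 0.273). Macrophage markers, 8 of 10 above the filter, stood at 0.27, 0.52, 0.94 and -0.50 in the mutant, against -0.35 to -0.26 in the wild-type. Mutant replicate 4 lay below the wild-type arrays and the other mutant arrays above them. The part of these cells in the Apcdd1, Id2, Ror2 and Celsr3 values was not tested.

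The remaining lists gave 0 calls among 2 tested genes of ligand processing, 12 of the destruction complex and cytoplasm and 13 nuclear cofactors. Calls were 1 of 6 among receptors and their regulators (Ror2), 1 of 8 among secreted regulators (Apcdd1), 1 of 7 in the planar polarity branch (Celsr3) and 1 of 11 among beta-catenin target genes (Id2). The median difference was -0.12 over those 11 target genes and 0.14 over the 12 genes of the destruction complex, against 0.0018 over all named genes. Among the target genes, Ccnd1, Ccnd2, Tnfrsf19 and Neurog2 read higher on wild-type replicates 3 and 4 than on any other array. Nrcam read lower there than on any other array. The part of the wild-type pairs in these medians was not tested.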

How the data were processed

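Bead intensities of 8 arrays were deposited by the authors on a linear scale, 25697 probes with 1 column per sample; BeadStudio is the tool given per the submitters' processing notes, without version or settings. The lowest value, 80.32, shows that background was still included; detection p-values were not in the table. The deposited log2 table was checked: log2 and quantile normalization of the intensities gives it back to within 5e-09, so it serves as an alternative. Intensities were corrected with normexp (offset 50), put on the log2 scale and quantile normalized with limma 3.58.1 in R 4.3.3. Probes were named from the platform annotation, updated by Entrez identifier to GRCm38.p6 symbols (23978 with 1 symbol, 0 with several, 1719 with none). Probes with a mean above the median of all were kept, the brightest for each gene, leaving 9664 features. Each was tested with lmFit and eBayes as a two-sided comparison of mutant with wild-type, without covariates, with Benjamini-Hochberg adjustment over the 9664 and a call at 0.05; counts cover named genes. Precision is limited by the number of arrays, with a median SE of 0.10. Array order on the slide separates the genotypes, so position and genotype cannot be told apart. The summed level of a marker list is the mean of its members' levels, each centred on its mean over 8 arrays.

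The procedure was tested on simulated data with independent normal noise for each gene. Those data held no wild-type pairs and no shared shifts between genes, so that test does not cover them. The members, lists and tests were chosen with earlier results of these data known. Named genes are all members, with every array given for those with an unadjusted p under 0.05, Wnt1, Axin2, Lef1, Ctnnb1 and the 2 brightest of each role, and the further pathway genes called; other arrays shown were chosen after their values were seen. Alternatives were no background correction, another offset, the deposited log2 table, cyclic loess, median scaling, other filters, the mean of probes, every probe, array weights, a trend on intensity, a replicate block, another threshold, and leaving out arrays. The deleted genes had no probe name in the table used and were not analysed here.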

Additional observations from a re-analysis of the deposited data

Results flagged for a closer look

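In 10 of 130 groups of 4 arrays 1 array stood far from the other 3, and chance alone gives about 1 group in 20. For Wnt4, wild-type replicate 4 read 7.01, against 6.89 to 6.90 on the other wild-type arrays. For Wnt7b, wild-type replicate 4 read 7.67, against 6.04 to 6.17. For Fzd8, wild-type replicate 3 read 6.53, against 6.99 to 7.04. For Rspo2, mutant replicate 4 read 7.52, against 6.67 to 6.76 on the other mutant arrays. For Ctnnb1, mutant replicate 2 read 12.85, against 12.98 to 13.01. For Fzd10, mutant replicate 2 read 9.02 at the brightest probe, against 8.53 to 8.59, and mutant replicate 1 read 7.0 at the second probe, against 7.16 to 7.18. Among probes under the filter, mutant replicate 1 read 6.33 for Wnt2b, against 6.50 to 6.54. Mutant replicate 4 read 6.75 for Wnt9a, against 6.49 to 6.53, and 6.73 for Wnt10a, against 6.44 to 6.46.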

How the results depend on the processing

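The count of called members, 0 of 24, was 1 with median scaling (Ctnnb1), 1 without both wild-type 1 and 2 (Fzd10) and 0 to 1 with single arrays left out (Wnt4 without mutant replicate 4). It was 0 under the other alternatives run. The count of further pathway genes, 4 of 59, was 2 with median scaling, 17 without both wild-type 1 and 2, 0 with the replicate block and 1 to 3 with single arrays left out, and 3 to 5 otherwise. Over all named genes, 224 calls became 341 with array weights, 82 with the replicate block, 1218 without both wild-type 1 and 2, 443 at an adjusted p under 0.1 and 67 to 200 with single arrays left out. With median scaling 76.1% of all calls were lower in the mutant, against 44.2% as reported, and with the replicate block 54.9%. Replicate numbers did not pair the samples: same-numbered arrays correlated at -0.078, -0.29, -0.071 and -0.051 in their deviations from the group means. With the replicate block the limma adjusted p was 0.115 for Ror2, 0.131 for Celsr3, 0.0841 for Apcdd1 and 0.0597 for Id2. With a normexp offset of 16, Celsr3 was not called (limma adjusted p = 0.0589).

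Several members with differences near 0 changed sign. Without both wild-type 3 and 4 the difference was 0.034 for Wnt5a, 0.63 for Fzd10, -0.10 for Lgr5, -0.50 for Sfrp5 and 0.14 for Rspo3. Without both wild-type 1 and 2 it was -0.0002 for Fzd2, 0.0029 for Fzd4, 0.033 for Fzd7, -0.13 for Sfrp2 and -0.35 for Axin2. With array weights it was 0.015 for Wnt5a, 0.0043 for Fzd7, -0.065 for Lgr5 and -0.029 for Sfrp2. Offset 16 gave 0.0048 for Fzd10 and -0.0081 for Lgr5, cyclic loess 0.0016 for Fzd7, the mean of probes 0.0066 for Fzd10, and median scaling -0.0080 for Sfrp2 and -0.022 for Axin2. With single arrays left out the differences ran from -0.16 to 0.045 for Wnt5a, -0.042 to 0.0385 for Fzd4, -0.042 to 0.062 for Fzd7, -0.24 to 0.26 for Fzd10, -0.18 to 0.087 for Lgr5, -0.069 to 0.12 for Sfrp2, -0.13 to 0.40 for Sfrp5, -0.20 to 0.014 for Rspo3, -0.091 to 0.21 for Axin2 and -0.095 to 0.0022 for Tcf7l1. The cause was not tested. The upper quartile filter left no value for dim genes. Signal over background limits the 22 members under the filter level.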
